A study of Spodoptera frugiperda with 3 samples.

Results

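Proteins that carry lipids and other lipophilic molecules were examined in whole larvae of the fall armyworm, Spodoptera frugiperda, after exposure to cold or heat. The 44 members were the unigenes, the non-redundant contigs of a de novo assembly, whose best protein hit in the NR database was named as an alpha-tocopherol transfer protein, a clavesin, a fatty acid-binding protein, an acyl-CoA-binding protein, a Niemann-Pick type C (NPC) protein, a takeout protein, an oxysterol-binding protein or an apolipoprotein D. They were 44 of the 30327 unigenes in the 3 deposited tables, of which 8310 had an NR hit. The best hit came from Spodoptera litura for 43 members and from Helicoverpa armigera for 1. No unigene of these tables had a hit named as a sterol carrier, retinol-binding, retinaldehyde-binding, bilin-binding or lipocalin protein. The larvae were wild type, labelled as 4th instar and taken as whole bodies. The study's methods also give the 4th instar for the exposure, but its section on RNA extraction names the 5th. The T4 library came from larvae kept at 4 °C for 16 h, the T40 library from larvae kept at 40 °C for 16 h, and the T25 library from control larvae kept at 25 °C, for a time that is not stated in the sources used here. Each library was made from 5 pooled larvae and each temperature had 1 library, so no difference below has a replicate check and no test was made.

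Lipids and lipophilic vitamins, sterols and hormones are poorly soluble in water and move between membranes, cells and the hemolymph bound to carrier proteins. Fatty acid-binding and acyl-CoA-binding proteins hold fatty acids and their CoA esters inside cells, NPC proteins move sterols out of late endosomes and lysosomes, and CRAL-TRIO proteins, to which the alpha-tocopherol transfer proteins and clavesins belong, enclose a lipophilic ligand in a pocket. Lipocalins such as apolipoprotein D and the takeout proteins of insects are mostly secreted. Insects cannot make sterols and take them from the diet.

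The domain annotation matched the family name for 42 of 44 members. A CRAL-TRIO domain was annotated on 22 of 23 CRAL-TRIO members, comprising 15 named as alpha-tocopherol transfer proteins and 8 named as clavesins; the clavesin-1 unigene c176881_g6_i1 had no Pfam annotation. All 7 fatty acid-binding proteins and all 3 apolipoprotein D members carried a domain of the lipocalin type, all 5 takeout members the juvenile hormone-binding domain (JHBP), the NPC1B-like member a Patched domain, the NPC2 homolog the E1_DerP2_DerF2 domain and the oxysterol-binding member its own domain. The exception among the 3 acyl-CoA-binding members was c139666_g1_i2. Its hit was named acyl-CoA-binding domain-containing protein 6-like, but its Pfam domain was a methyltransferase domain (Methyltransf_16), so it is described below by that domain.

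The tables held 16678975 reads for T25, 21560373 for T40 and 24403584 for T4, and the effective library sizes behind the deposited normalized values were 28015943, 38643842 and 36483914 reads. Read counts were divided by these sizes. The top 10 unigenes took 43.6% of tabulated reads in the cold library, 33.5% in the control and 13.4% after heat. Markers of midgut, fat body, cuticle, muscle and neurons were all present. The authors left out unigenes by their read counts of 0 before comparing libraries. The absence of counts of 0 among the markers therefore cannot show which tissues were kept. In pooled whole larvae, fewer cells of a type and less RNA per cell cannot be told apart.

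A table lists only the unigenes that passed a cut of the authors on the difference between its libraries. It held 12173 unigenes at T4 against T25 and 20077 at T40 against T25, far more than the differentially expressed genes counted in the paper. A listed member is therefore not necessarily one of those genes. A count in all 3 libraries was available for 37 members, while 3 members had no T4 count and 4 had no T25 count. Of the 44 members, 11 were listed in all 3 comparisons, 26 in 2 and 7 in 1. Every fold change below is a ratio of scaled counts, and its 95% exact interval covers counting error only, not the difference between larvae. A listed member is called higher or lower as the scaled counts give it.

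**Figure D1:**
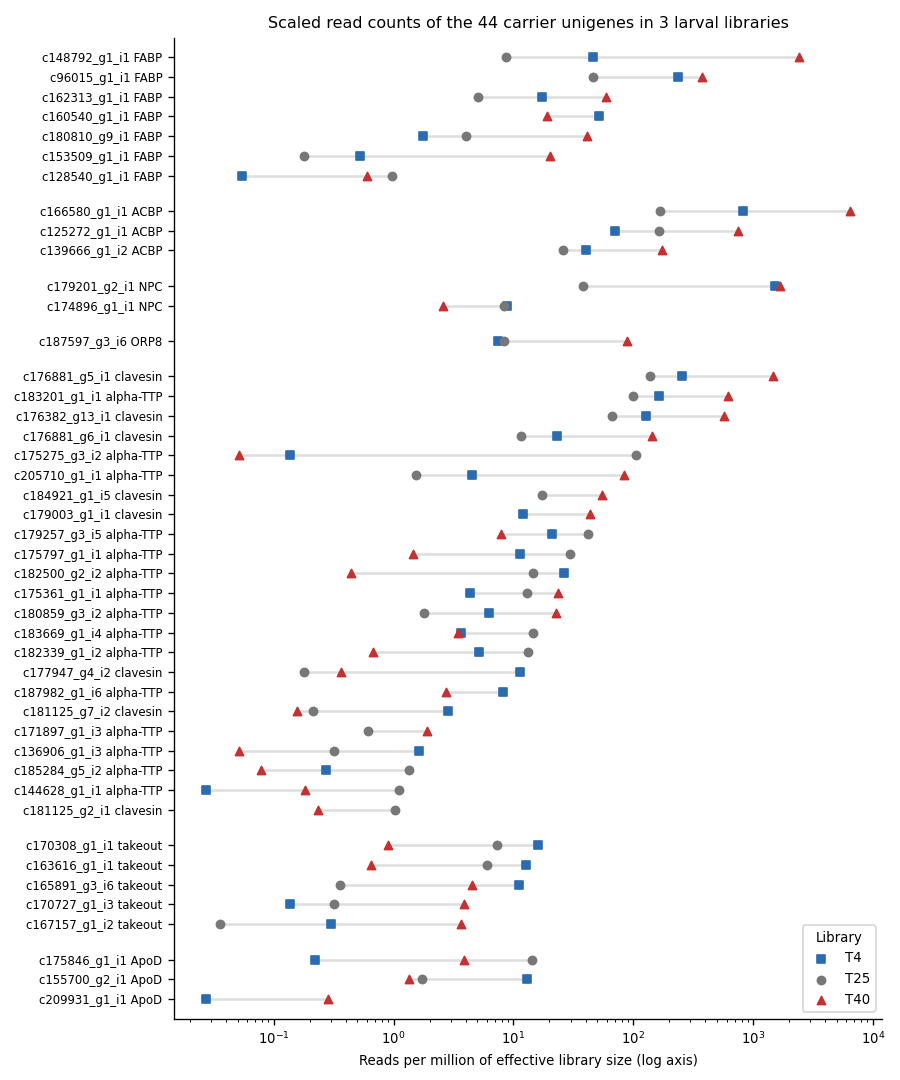
Scaled read counts (CPM, counts per effective library size, log axis) of the 44 carrier unigenes in the T4, T25 and T40 libraries, grouped by family, with 1 point per library and a grey line over the range. Of the 6 fatty acid-binding members with a count in all libraries 5 were highest at T40, as were the 3 members named as acyl-CoA-binding, c139666_g1_i2 with its methyltransferase domain included, whereas of 18 such CRAL-TRIO members 7 were highest at T40, 7 at T25 and 4 at T4. Over unigenes with an NR hit and a count in all libraries, 45.8% were highest at T40, 32.8% at T25 and 21.4% at T4.

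In the comparison of cold with the control, 23 members were listed, 13 higher and 10 lower at T4. This was 56.5% higher, against a background of 55.1% over all listed unigenes and 49.4% over listed unigenes with an NR hit. Of the 8310 unigenes with an NR hit that were listed in any comparison, 41.1% were listed in this one, as were 23 of the 44 members. The median log2 ratio was 1.77 over the members, 1.54 over all listed unigenes and -1.25 over listed unigenes with an NR hit. The authors' cut leaves out small differences, so the sign of such a median follows the direction that holds more listed unigenes. The difference in sign between these medians therefore restates the shares above and does not measure a larger shift of the members. A difference of at least 10-fold was found for 8 of the 23, 4 in each direction, against 22.5% of listed unigenes with an NR hit.

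In the comparison of heat with the control, 34 members were listed, 21 higher and 13 lower at T40. The share higher was 61.8%, against 47.1% over all listed unigenes and 53.6% over those with an NR hit. Of the 8310 unigenes with an NR hit that were listed in any comparison, 73.7% were listed here, as were 34 of the 44 members. The median log2 ratio of the members was 2.69. That of all listed unigenes was -1.49 and that of listed unigenes with an NR hit was 1.40. Because of the authors' cut, the difference in sign again restates the shares higher. At least 10-fold differences were found for 19 of the 34, comprising 14 higher and 5 lower, against 28.1% of listed unigenes with an NR hit. The members were also counted more deeply, with a median of 1020 reads in the higher library against 462 for listed unigenes with an NR hit.

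Between heat and cold, 35 members were listed, 21 higher at T40 and 14 higher at T4. The share higher at T40 was 60.0%, against 45.4% over all listed unigenes and 56.6% over those with an NR hit. Of the 8310 unigenes with an NR hit that were listed in any comparison, 66.0% were listed here, as were 35 of the 44 members. The median log2 ratio was 1.92 for the members, -1.56 for all listed unigenes and 1.44 for listed unigenes with an NR hit. Here too the difference in sign restates the shares higher. At least 10-fold differences were found for 17 of the 35, against 24.4% of listed unigenes with an NR hit. These 3 comparisons share their libraries, so they are given side by side and are not independent.

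**Figure D2:**
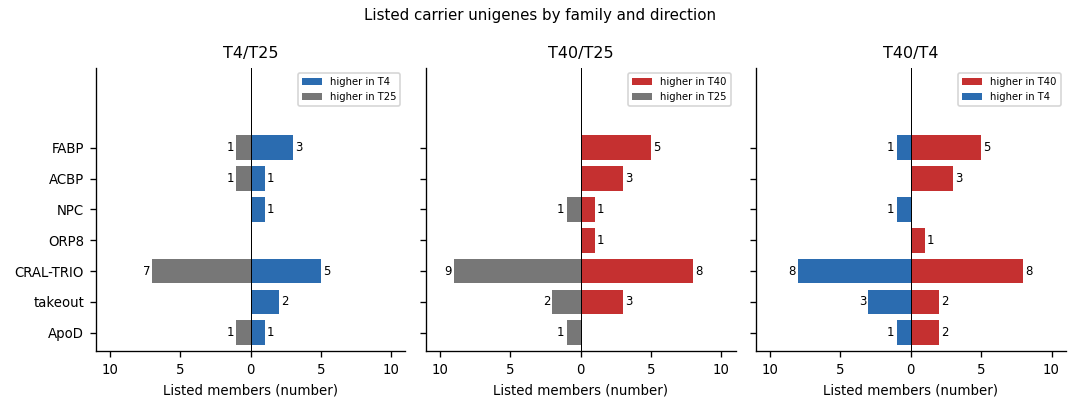
Number of listed members of each family by direction in the T4/T25, T40/T25 and T40/T4 comparisons; bars to the right are higher in the library named first and bars to the left higher in the other. At T40 against T25 all 5 listed fatty acid-binding members were higher at T40, as were all 3 members named as acyl-CoA-binding, 1 of which carries a methyltransferase domain, and the CRAL-TRIO members were divided, with 8 higher and 9 lower. The share higher at T40 over listed unigenes with an NR hit was 53.6% in this comparison.

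All 5 listed fatty acid-binding proteins, carriers of fatty acids within the cell, were higher at T40 than at T25, with a median log2 ratio of 3.55, and 5 of 6 listed were higher at T40 than at T4. Under cold, 3 of 4 listed members were higher at T4 than at T25. Over listed unigenes with an NR hit, the shares higher were 53.6%, 56.6% and 49.4% in these comparisons in turn. With so few members, the family was not tested against these shares. Summed over the 6 members with a value in every library, deposited FPKM, a value per transcript length and library size, was 79.1 at T25, 283 at T4 and 2365 at T40.

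The fatty acid-binding protein 1-like unigene c148792_g1_i1 had 244 reads at T25, 1674 at T4 and 93607 at T40. It was lowest in the control and highest after heat. Its scaled count was 278-fold higher at T40 than at T25 (95% interval 245 to 317), 52.8-fold higher at T40 than at T4 (50.3 to 55.4) and 5.27-fold higher at T4 than at T25 (4.604 to 6.05). In FPKM it stood at 5.42, 26.9 and 1643 at T25, T4 and T40, and it contributed 69.5% of the family's summed FPKM at T40.

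Another unigene of the same name, c153509_g1_i1, had 5 reads at T25, 19 at T4 and 778 at T40. Heat again gave the highest value, by 113-fold against T25 (48.1 to 348) and 38.7-fold against T4 (24.6 to 64.6). The 2.92-fold difference between T4 and T25 (1.05 to 10.0) was not listed. A further fatty acid-binding protein 1-like unigene, c160540_g1_i1, went the other way. It had 1884 reads at T4 and 739 at T40, 2.70-fold higher at T4 (2.48 to 2.94), and its T25 count is not in the tables used.

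The liver-like fatty acid-binding protein c96015_g1_i1, named after the vertebrate liver form, led the family at T25 and T4. It had 1305 reads at T25, 8542 at T4 and 14389 at T40. Both extremes were above the control, by 5.03-fold at T4 (4.74 to 5.33) and 7.99-fold at T40 (7.55 to 8.47), and the 1.59-fold difference between T40 and T4 (1.55 to 1.63) was not listed. The unigene c162313_g1_i1, named only as fatty acid-binding protein-like, had 141 reads at T25, 629 at T4 and 2292 at T40. It followed the same order, 3.43-fold higher at T4 (2.85 to 4.14) and 11.8-fold higher at T40 (9.94 to 14.1) than in the control.

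A second liver-like unigene, c180810_g9_i1, had 64 reads at T4, 113 at T25 and 1589 at T40. It was 10.2-fold higher at T40 than at T25 (8.42 to 12.5) and 23.4-fold higher than at T4 (18.3 to 30.6), with T4 the lowest library. The fatty acid-binding protein 2-like unigene c128540_g1_i1 stayed under 30 reads in every library, with 2 at T4, 27 at T25 and 23 at T40. This was the family's sole listed member lower at T4 than at T25, by 17.6-fold (4.42 to 153).

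Acyl-CoA-binding proteins, small cytosolic carriers of long-chain acyl-CoA esters, gave the highest FPKM of the 44 members at T40. The acyl-CoA-binding protein homolog c166580_g1_i1 had 4704 reads at T25, 30293 at T4 and 249745 at T40. It was 38.5-fold higher at T40 than at T25 (37.4 to 39.6), 7.78-fold higher at T40 than at T4 (7.69 to 7.88) and 4.95-fold higher at T4 than at T25 (4.80 to 5.10). Its FPKM of 6859 at T40 ranked 4 among the 27856 unigenes with a T40 value, against a rank of 207 at T25 and 39 at T4.

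The other unigene with this domain, c125272_g1_i1, had 2547 reads at T4, 4631 at T25 and 29181 at T40. Heat was again the highest library, by 4.57-fold against T25 (4.43 to 4.71) and 10.8-fold against T4 (10.4 to 11.3). Cold lay on the opposite side of the control from c166580_g1_i1, with a scaled count 2.37-fold lower at T4 than at T25 (2.26 to 2.49). In FPKM the order of the acyl-CoA-binding members also changed between libraries, since c125272_g1_i1 was above c166580_g1_i1 at T25 (457 against 164) and below it at T4 (180 against 762) and T40 (2241 against 6859).

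The methyltransferase-domain unigene c139666_g1_i2 had 725 reads at T25, 1466 at T4 and 6650 at T40. Its scaled count was 6.65-fold higher at T40 than at T25 (6.16 to 7.19) and 4.28-fold higher at T40 than at T4 (4.05 to 4.53). Without it, the acyl-CoA-binding family consisted of the other two unigenes.

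**Figure D3:**
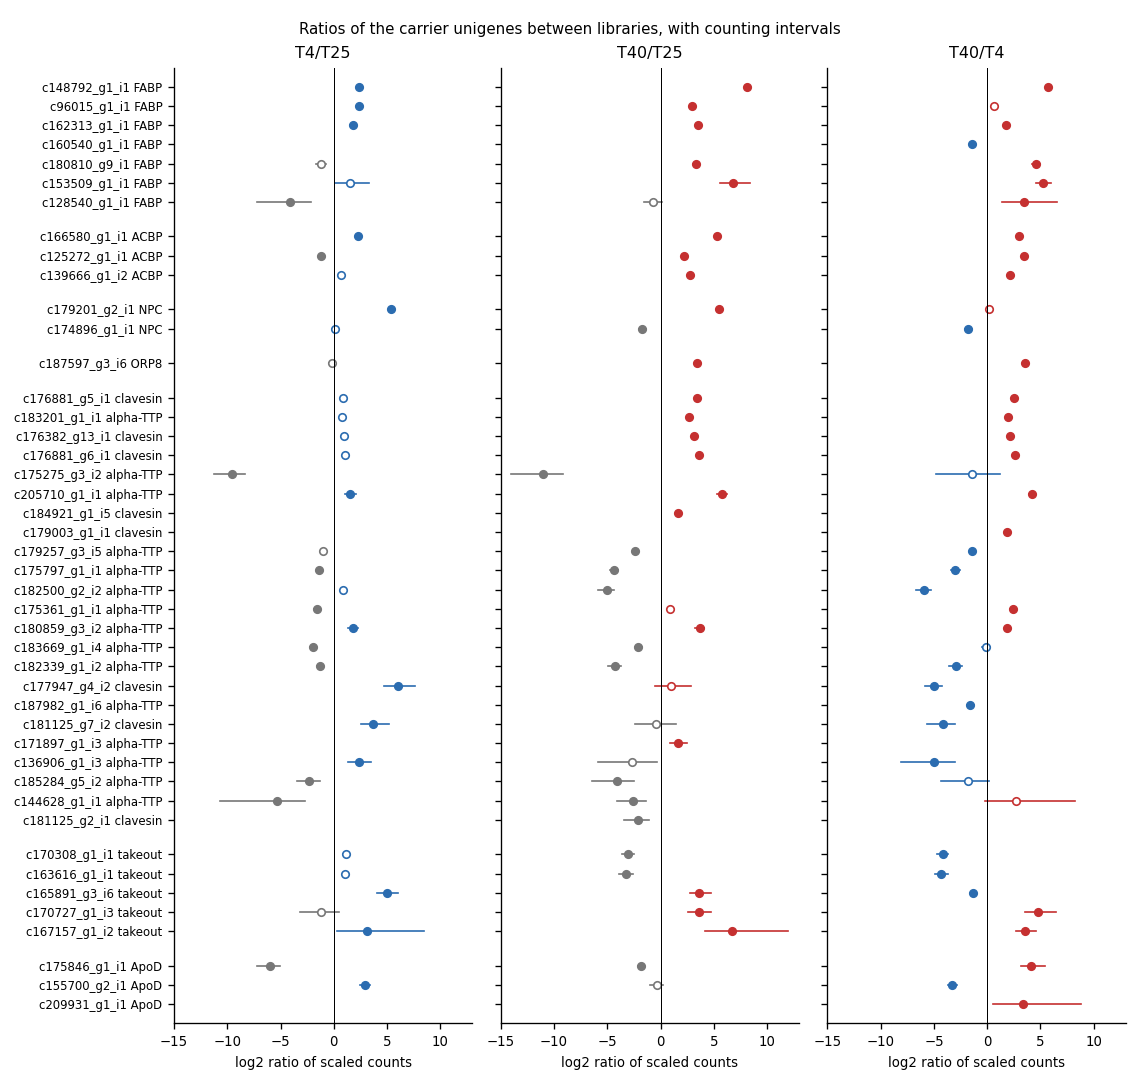
The log2 ratio of scaled counts of each carrier unigene in the T4/T25, T40/T25 and T40/T4 comparisons, with 95% exact counting intervals as horizontal lines; colour gives the higher library (blue T4, grey T25, red T40), filled points are listed by the authors and open points are not. The NPC1B-like unigene c179201_g2_i1 was far above the control in both extremes, with log2 ratios of 5.32 and 5.47, and the longest distance below the control was that of c175275_g3_i2.

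The sterol carriers of the NPC type differed from each other. NPC1 is a membrane protein of late endosomes and lysosomes that exports cholesterol, and the Drosophila protein Npc1b, the fly gene given in the annotation of c179201_g2_i1, is needed in the midgut for uptake of dietary sterol. The NPC1B-like unigene c179201_g2_i1 had 1062 reads at T25, 55402 at T4 and 65079 at T40. The control stood far below both extremes, by 40.1-fold against T4 (37.7 to 42.6) and 44.4-fold against T40 (41.8 to 47.2). Between T40 and T4 the ratio was 1.11 (1.097 to 1.122), which was not listed. FPKM was 7.78 at T25, 294 at T4 and 378 at T40, so this unigene ranked 2985 by FPKM among the 25964 unigenes with a T25 value, 99 at T4 and 142 at T40.

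The soluble partner NPC2, which binds cholesterol within the lysosome in mammals, was represented by c174896_g1_i1. It had 232 reads at T25, 320 at T4 and 99 at T40. Heat gave the lowest value, 3.23-fold lower than the control (2.54 to 4.13) and 3.42-fold lower than cold (2.72 to 4.33). Cold and control differed by a ratio of 1.06 (0.892 to 1.26), an interval that includes 1, and FPKM gave the opposite order, 9.59 at T4 and 9.65 at T25.

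Oxysterol-binding protein-related protein 8 exchanges phosphatidylserine for a phosphoinositide between the endoplasmic reticulum and the plasma membrane in mammals. Its unigene c187597_g3_i6 had 235 reads at T25, 269 at T4 and 3398 at T40. Heat gave the highest value, 10.5-fold above the control (9.18 to 12.0) and 11.9-fold above cold (10.5 to 13.6). The scaled count at T4 was 1.14-fold lower than at T25 (0.951 to 1.36), which was not listed.

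The CRAL-TRIO carriers were the largest family and had no shared direction. At T4 against T25, 5 of 12 listed members were higher and 7 lower. At T40 against T25, 8 of 17 were higher and 9 lower, and at T40 against T4, 8 of 16 were higher and 8 lower. Of the alpha-tocopherol transfer proteins, named after the vitamin E carrier of mammalian liver, 4 of 12 listed were higher at T40 than at T25, 4 of 10 at T40 than at T4 and 3 of 10 at T4 than at T25. Of the clavesins, phosphoinositide-binding proteins of clathrin-coated vesicles in mammalian neurons, 4 of 5, 4 of 6 and 2 of 2 were higher in the same comparisons. Over listed unigenes with an NR hit these shares were 53.6%, 56.6% and 49.4%, and with so few members, of which some may be fragments of 1 transcript, the names were not tested against each other.

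The alpha-tocopherol transfer protein-like member c175275_g3_i2 covered the widest range of any. It had 2969 reads at T25, 5 at T4 and 2 at T40. It was abundant in the control and counted by a handful of reads in both extremes. The scaled count was 773-fold lower at T4 (331 to 2383) and 2048-fold lower at T40 (566 to 16916), with the width of these intervals set by the few reads in the lower library. It contributed 19.6% of the family's summed FPKM at T25, more than any other of the 18 members with a value in every library, and its FPKM was 59.7 at T25, 0.07 at T4 and 0.03 at T40.

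Other alpha-tocopherol transfer protein-like unigenes were lowest after heat. The unigene c182500_g2_i2 had 405 reads at T25, 973 at T4 and 17 at T40, 32.9-fold lower at T40 than at T25 (20.3 to 57.0) and 60.6-fold lower than at T4 (37.7 to 104.5). The unigene with the Helicoverpa armigera hit, c175797_g1_i1, had 825 reads at T25, 417 at T4 and 56 at T40. It was below the control in both extremes, by 2.58-fold at T4 (2.29 to 2.91) and 20.3-fold at T40 (15.5 to 27.1). The unigene c182339_g1_i2, with 371 reads at T25, 190 at T4 and 26 at T40, had nearly the same ratios, 2.54-fold lower at T4 (2.13 to 3.04) and 19.7-fold lower at T40 (13.2 to 30.5). The NR hits of these carriers are different entries, that of c175797_g1_i1 from another species. This does not settle whether the unigenes come from different genes.

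The unigene c183669_g1_i4 had 405 reads at T25, 134 at T4 and 133 at T40. Cold and heat were both below the control here, 3.94-fold (3.23 to 4.82) and 4.20-fold (3.44 to 5.15), and the T4 and T40 scaled counts differed by a ratio of 1.07 (0.833 to 1.37) that was not listed.

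Members of the same name were also higher in both extremes. The alpha-tocopherol transfer protein unigene c205710_g1_i1 had 43 reads at T25, 165 at T4 and 3206 at T40. It was 2.95-fold higher at T4 (2.10 to 4.22) and 54.1-fold higher at T40 (40.0 to 74.8) than in the control. The unigene c180859_g3_i2 had 50 reads at T25, 227 at T4 and 875 at T40. It kept the same order of libraries, 3.49-fold (2.56 to 4.84) and 12.7-fold (9.54 to 17.2) above the control.

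The CRAL-TRIO member with the most reads was a clavesin, c176881_g5_i1. The unigenes c176881_g5_i1 and c176881_g6_i1 share an assembly cluster and an NR hit, clavesin-1, and may be fragments of 1 transcript. The unigene c176881_g6_i1 had 323 reads at T25, 850 at T4 and 5496 at T40, 12.3-fold higher at T40 than at T25 (11.02 to 13.8). For c176881_g5_i1, with 3831 reads at T25, 9292 at T4 and 57135 at T40, the ratio was 10.8 (10.5 to 11.2). This unigene was chosen for mention after its values were seen, as were the next pair of unigenes. The clavesin-2-like unigene c176382_g13_i1, with 1846, 4630 and 22285 reads at T25, T4 and T40, was 8.75-fold higher at T40 than at T25 (8.35 to 9.18). The alpha-tocopherol transfer protein-like unigene c183201_g1_i1, with 2767, 5987 and 23934 reads, was 6.27-fold higher (6.03 to 6.53). None of these 4 was listed at T4 against T25, where their ratios lay between 1.66 and 2.02.

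Other clavesins peaked in the cold. The clavesin-1-like unigene c177947_g4_i2 had 5 reads at T25, 412 at T4 and 14 at T40. The T4 value exceeded the control 63.3-fold (26.9 to 196) and heat 31.2-fold (18.4 to 57.5), and the control and heat were not listed as different. The unigene c181125_g7_i2 had 6 reads at T25, 103 at T4 and 6 at T40, again highest in the cold, 13.2-fold above the control (5.85 to 36.8) and 18.2-fold above heat (8.07 to 50.7). It shares a cluster and an NR hit with c181125_g2_i1, which had 29 reads at T25 and 9 at T40 and was 4.44-fold lower at T40 (2.05 to 10.7).

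The remaining CRAL-TRIO members were not picked by the naming rule. The alpha-tocopherol transfer protein-like unigene c179257_g3_i5 had 1165 reads at T25, 768 at T4 and 307 at T40, and was lowest after heat, 5.23-fold below the control (4.61 to 5.96). The unigene c175361_g1_i1 had 364 reads at T25, 159 at T4 and 905 at T40. Here cold was the lowest library, 2.98-fold below the control (2.47 to 3.61), and heat was 5.37-fold above cold (4.54 to 6.40). Members of more reads but without a count in 1 library were the clavesin-2-like c184921_g1_i5, which was 3.16-fold higher at T40 than at T25 (2.86 to 3.49), the clavesin-2-like c179003_g1_i1, which was 3.65-fold higher at T40 than at T4 (3.28 to 4.06), and c187982_g1_i6, which was 3.01-fold higher at T4 than at T40 (2.40 to 3.79). The alpha-tocopherol transfer protein-like unigenes c136906_g1_i3, c144628_g1_i1, c171897_g1_i3 and c185284_g5_i2 had at most 74 reads in each library with a count. Of these, c136906_g1_i3 was highest at T4, c144628_g1_i1 and c185284_g5_i2 were highest at T25, and c171897_g1_i3, which has no T4 count, had 17 reads at T25 and 74 at T40.

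Takeout proteins belong to the family of hemolymph juvenile hormone-binding proteins, and in Drosophila takeout takes part in feeding behaviour. The 5 members had no common order of libraries. At T40 against T25 all 5 were listed, 3 higher and 2 lower, and at T40 against T4 all 5 were listed, 2 higher and 3 lower. Both listed at T4 against T25 were higher at T4. Of unigenes with an NR hit, 73.7%, 66% and 41.1% were listed in these comparisons in turn. Among those listed, 53.6%, 56.6% and 49.4% were higher, and these few members were not tested against such shares.

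The takeout-like unigene c165891_g3_i6 had 10 reads at T25, 406 at T4 and 173 at T40. Both extremes were above the control, by 31.2-fold in the cold (16.8 to 65.5) and 12.5-fold in the heat (6.66 to 26.6). The takeout-like unigene c167157_g1_i2 had 1 read at T25, 11 at T4 and 141 at T40. It was highest after heat, 102-fold above the control (18.1 to 4066) and 12.1-fold above cold (6.56 to 24.8), and its cold value was 8.45-fold above the single control read (1.23 to 364). The takeout unigene c170727_g1_i3, with 9 reads at T25, 5 at T4 and 149 at T40, was 12.0-fold above the control after heat (6.16 to 26.8).

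The other two were lowest after heat. The takeout-like unigene c170308_g1_i1 had 206 reads at T25, 588 at T4 and 35 at T40, 8.12-fold lower at T40 than at T25 (5.65 to 12.0) and 17.8-fold lower than at T4 (12.6 to 25.8). The takeout unigene c163616_g1_i1, with 169 reads at T25, 464 at T4 and 25 at T40, was 9.32-fold lower than the control (6.10 to 14.8) and 19.7-fold lower than cold (13.1 to 30.7). Their T4 scaled counts were 2.19-fold (1.87 to 2.58) and 2.11-fold (1.76 to 2.53) above the control and were not listed.

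Apolipoprotein D is a secreted lipocalin that binds small lipophilic molecules, and its Drosophila relatives Neural Lazarillo and Glial Lazarillo act in stress resistance. The apolipoprotein D-like unigene annotated with Neural Lazarillo, c175846_g1_i1, had 397 reads at T25, 8 at T4 and 151 at T40. The control was highest and cold lowest, 64.6-fold below the control (32.5 to 151), while heat was 3.63-fold below it (2.999 to 4.40). The unigene annotated with Glial Lazarillo, c155700_g2_i1, had 48 reads at T25, 473 at T4 and 52 at T40. It was highest in the cold, 7.57-fold above the control (5.62 to 10.4) and 9.63-fold above heat (7.23 to 13.1). The control and heat values differed by a ratio of 1.27 (0.842 to 1.92) and were not listed as different. In the cold these lipocalins stood on opposite sides of the control. A further apolipoprotein D-like unigene, c209931_g1_i1, shares its NR hit with c155700_g2_i1 and had 1 read at T4 and 11 at T40, 10.4-fold higher at T40 (1.51 to 447).

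**Figure D4:**
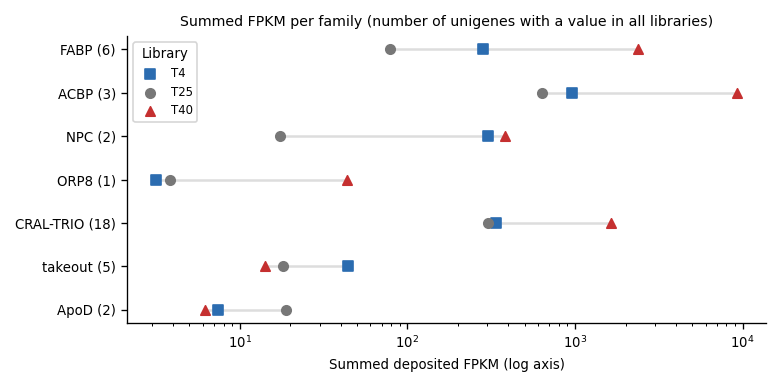
Deposited FPKM summed over the members of each family with a value in all 3 libraries (log axis; the number of unigenes is in parentheses), with 1 point per library. The sum for members named as acyl-CoA-binding, c139666_g1_i2 included, was 9195 at T40 against 635 at T25, and the takeout and apolipoprotein D sums were lowest at T40.

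Across the 37 members with a count in every library, 19 had their highest scaled count at T40, 9 at T4 and 9 at T25. Among the 5801 unigenes with an NR hit and a count in every library, 45.8% were highest at T40, 21.4% at T4 and 32.8% at T25, against 51.4%, 24.3% and 24.3% of the members. Summed FPKM of the 37 members was 1076 at T25, 1941 at T4 and 13644 at T40. At T40, 50.3% of this sum came from c166580_g1_i1. The CRAL-TRIO sum was 304 at T25, 338 at T4 and 1639 at T40. The takeout sum was 18.1 at T25, 43.9 at T4 and 14.2 at T40, and the apolipoprotein D sum was 18.9, 7.42 and 6.22.

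Marker lists of tissues moved between the same libraries. Midgut markers (66 unigenes with a count in every library) summed to 4507 FPKM at T25, 4011 at T4 and 12638 at T40, and 31 of 57 listed were higher at T40 than at T25. Fat body and hemolymph markers (11 unigenes) summed to 62375, 107172 and 13236 FPKM at T25, T4 and T40, with 10 of 12 listed lower at T40 than at T25. Muscle markers (31 unigenes) summed to 11012, 8233 and 1436 FPKM, with 24 of 32 lower at T40. Cuticle markers (14 unigenes) summed to 4366, 4250 and 1463 FPKM, with 8 of 12 lower, and neuronal markers (12 unigenes) to 68.6, 49.9 and 31.2 FPKM, with 8 of 11 lower. At T40 against T4, 7 of 13 listed neuronal markers were higher at T40 and 6 lower. The neuronal list was matched by the names synaptotagmin, acetylcholine receptor, neuropeptide, syntaxin and synapsin. Whether these names mark neurons alone was not tested. Over listed unigenes with an NR hit, the share higher at T40 than at T25 was 53.6%, near that of the midgut markers. Over all listed unigenes it was 47.1%. The part of the tissues in the values of the carriers was not tested.

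Other genes of lipid carriage were counted beside the members. Over listed unigenes with an NR hit, 49.4% were higher at T4 than at T25 and 53.6% higher at T40 than at T25. Several of the small counts below lie near these shares, and none was tested. Lipophorin also belongs to the fat body and hemolymph markers above. Lipoproteins of the hemolymph and egg, lipophorin and vitellogenin, had 8 of 10 listed unigenes higher at T4 than at T25, and 4 higher and 4 lower at T40. Uptake receptors of the CD36 and lipoprotein receptor types had 7 of 8 higher at T4, and 3 of 7 higher at T40. Lipid droplet proteins had 2 of 2 higher at T4 and 3 of 3 higher at T40, and fatty acid transport proteins and acyl-CoA synthetases had 2 of 5 and 2 of 4 higher. Odorant-binding and chemosensory proteins, carriers of small lipophilic odorants, had 3 of 4 higher at T4 and 0 of 6 higher at T40, with a median log2 ratio of -4.86 at T40 against T25. Other lipid transfer proteins had 0 of 2 and 5 of 8 higher, and ATP-binding cassette exporters of sub-families A and G had 1 of 6 and 6 of 12 higher. No unigene of these tables was named as a juvenile hormone-binding protein.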

How the data were processed

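RNA of whole larvae was sequenced with 1 library per temperature. Per the labels and the study's methods, the authors trimmed reads (Trimmomatic 0.38, FastQC 0.11.7), merged the libraries for a Trinity assembly clustered with CD-HIT, aligned reads with Bowtie 1.1.2 and estimated abundance with RSEM. The kit marks strand, and whether counting used strand is not given in the sources used here. The deposited tables give, per unigene and library, the read count (whole numbers), FPKM, and a log2 normalized value that the authors made with DESeq2 size factors. Tested on the files, this log2 value equalled log2 of 1 plus the CPM over an effective library size, which was derived from it. The tables also hold the authors' own fold changes and p-values, which were not used, and 6 further per-sample columns, equal to the normalized values, which were not used either. No reference genome was given, so neither positions nor sequences are reported, and unigenes can be fragments of 1 gene or share reads with paralogs.

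Counts were scaled by the effective sizes, and ratios were given 95% intervals (Clopper-Pearson, given the sum of both counts; Python, scipy). These cover counting error only. Depth is the effective size, so members of few reads have wide intervals. Medians used a pseudocount of 1 and printed folds none. Interval code was tested on simulated data. Unigenes not listed by the authors are not in the tables, so shares refer to listed unigenes. Named were, for each family and comparison, the 2 highest and 2 lowest listed members whose higher library held 100 reads or more, and every member of at least 100 reads listed in all 3 comparisons. Others mentioned were chosen after their values were seen. Members and lists were chosen with earlier results of these data known. Alternatives were scaling by trimmed reads, FPKM ratios, a minimum of 50 reads, a 4-fold minimum, 1 unigene per NR hit, a pseudocount of 10 and other readings of the name rule.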

Additional observations from a re-analysis of the deposited data

How the results depend on the processing

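Of 57 recomputed counts and medians, 55 moved by less than 1.5 times and no median changed sign. The counts have no direction to change, and the sign of a median follows the direction that holds more listed members. With only differences of at least 4-fold kept, the members listed lower were 5 at T4 against T25 and 9 at T40 against T4, in place of 10 and 14, since this setting drops members by construction. Scaling by trimmed reads shifted every log2 ratio by -0.13 at T4/T25, 0.16 at T40/T25 and 0.28 at T40/T4. Of 66 listed ratios of named members, neither it nor FPKM ratios reversed any. Shifts of this size could reverse none, since the smallest listed log2 ratio was -1.244, for c125272_g1_i1 at T4/T25. The lack of reversals by trimmed reads is therefore no check on direction. These scalings changed the ratios by between 0.907 and 1.22 times. Scaling by trimmed reads put 20 of the 66 ratios outside their printed counting intervals, and FPKM put 16 outside. The intervals thus do not cover the choice of scaling. A pseudocount of 1 read changed 2 of the 66 ratios by over 1.5 times, both of c167157_g1_i2 against its single T25 read, to 51.5 from 102 at T40/T25 and to 4.61 from 8.45 at T4/T25. Reading hyphens as spaces gave the same 44 members, leaving out names matched by NPC or lipocalin alone gave 43, and 1 unigene per NR hit gave 41. No paired analysis was possible because each temperature has 1 library, and for the same reason no replicate could be left out. Depth limits the members of few reads: 7 of the 44 had under 100 reads in each library with a count.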
